A study of Mus musculus with 6 samples.

Results

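The genes described here encode the machinery that copies DNA: 51 genes for origin licensing, origin firing, the replication fork, deoxynucleotide supply and the packaging of new DNA into chromatin. They were chosen by gene symbol from a written list, and all 51 were found among the 53465 genes of the deposited table. All 51 passed the filter on low counts and are among the 14038 genes tested, with at least 222 counts in every library. They were measured by RNA-seq of polyadenylated RNA in 4T1, a mouse mammary carcinoma line. The cells came from lesions that grew after surgery in mice dosed continuously with 100 mg/kg/day of axitinib, a drug that blocks the kinase activity of VEGF receptors. Culture afterwards was in 0.5 µM axitinib, a condition that both groups share. The resistant population was stained with C12FDG, whose cleavage by β-galactosidase releases a fluorescent dye, and was split by cell sorting into a high fraction (SM positive, 3 libraries) and a low fraction (SM negative, 3 libraries). High β-galactosidase activity at this stain is widely used as a sign of senescence, and an untreated or unsorted 4T1 population was not analysed here. How many lesions or mice the cells came from is not given in the labels, and neither is what a replicate number marks.

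Before a cell copies its DNA, the origin recognition complex, Cdc6 and Cdt1 load the ring-shaped Mcm2 to Mcm7 helicase onto origins, a step called licensing. In S phase the kinase Cdc7 with its partner Dbf4, together with Mcm10, Cdc45 and the GINS complex, turns the loaded ring into a moving helicase. Polymerases, the sliding clamp PCNA, its loader and the single-strand binder RPA then work at the fork, while ribonucleotide reductase and thymidylate synthase supply the building blocks. Many of these genes are activated by E2F transcription factors as cells enter S phase, and they are typically low in cells that have left the cell cycle.

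The members' promoters were searched for E2F elements first, since these are the best known letters they could share. Promoter windows (RefSeq, build GRCm38.p6, from 250 bases before to 50 after an annotated start) were present for 43 members, and each was searched on both strands for 4 forms of the E2F element, TTTCCCGC, TTTGGCGC, TTTCGCGC and TTTGCCGC. A form was found in 16 of the 43 (37.2%), against 704 of 27025 genes with a window (2.6%). A gene with several windows counted if any of them matched. The 27025 include genes that were not tested here, while all members were, and the share among tested genes was not computed. The members' share was not particular to them. Among the lists of other genes given below, a form was found in 8 of 23 other replication genes (34.8%) and 4 of 11 other chromatin genes (36.4%). It was found in 8 of 21 G1/S regulators (38.1%), 0 of 19 other nucleotide supply genes and 1 of 23 G2 and mitosis genes. By role, it was found in 7 of 10 licensing genes, 1 of 5 origin firing genes, 7 of 19 fork genes, 0 of 5 nucleotide supply genes and 1 of 4 chromatin genes. Matches on the 2 strands may overlap, as in the Mcm5 and Mcm6 windows. The stretches below show matches in licensing and fork genes, with the matched letters in capitals. In the Rrm2 window none of the 4 forms was found, and the capitals mark a CCAAT box. Rrm2 is not typical of the 27 members with a window but no form, since it alone of them rose in the paired comparison given below. Mcm2, Orc6, Mcm10, Pola2, Rpa2, Timeless and Dut, whose windows are not shown, also lacked a form and fell.
Mcm5, chr8:75109336-75109387, plus strand: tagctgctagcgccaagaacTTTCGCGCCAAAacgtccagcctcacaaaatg
Mcm6, chr1:128359730-128359830, minus strand: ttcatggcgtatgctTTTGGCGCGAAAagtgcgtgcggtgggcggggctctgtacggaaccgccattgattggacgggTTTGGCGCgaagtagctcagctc
Cdc6, chr11:98908002-98908031, plus strand: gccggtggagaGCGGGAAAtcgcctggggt
Orc1, chr4:108579416-108579445, plus strand: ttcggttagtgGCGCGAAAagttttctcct
Cdt1, chr8:122568036-122568064, plus strand: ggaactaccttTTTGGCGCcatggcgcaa
Rfc3, chr5:151651209-151651229, minus strand: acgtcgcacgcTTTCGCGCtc
Pold3, chr7:100121467-100121496, minus strand: gagcgaagctgTTTCCCGCcggcgggagct
Pola1, chrX:93632266-93632313, minus strand: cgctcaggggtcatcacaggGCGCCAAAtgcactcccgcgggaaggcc
Rrm2, chr12:24708189-24708223, plus strand: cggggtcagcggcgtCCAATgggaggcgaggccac
In Mcm5 and in Mcm6, forms on opposite strands share letters, so that 1 run of capitals holds a pair of matches. The CCAAT box (CCAAT, both strands) was found in 26 of 43 members (60.5%) and 41.1% of all windows. The cell cycle homology region, CHR (TTTGAA, both strands), which is known from genes of G2 and mitosis, was found in 7 of 43 members (16.3%) and 20.2% of all windows. Of the 7, 4 were among the 5 origin firing genes with a window, namely Cdc45, Cdc7, Dbf4 and Gins3. Of the 16 members with an E2F form, 9 fell in the paired comparison given below and none rose. Of the 27 with a window but no form, 7 fell and 1 rose. The median log2 changes in the unpaired fit were -0.16 and -0.090. This split was looked at after the values were seen and was not tested. The G1/S regulators, with a like share of E2F forms, had 5 rises and no fall among the 26 tested in the paired comparison. That comparison called 5.6% of all genes lower and 8.52% higher. The matches are descriptions of letters and say nothing about binding in these cells.

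**Figure D1:**
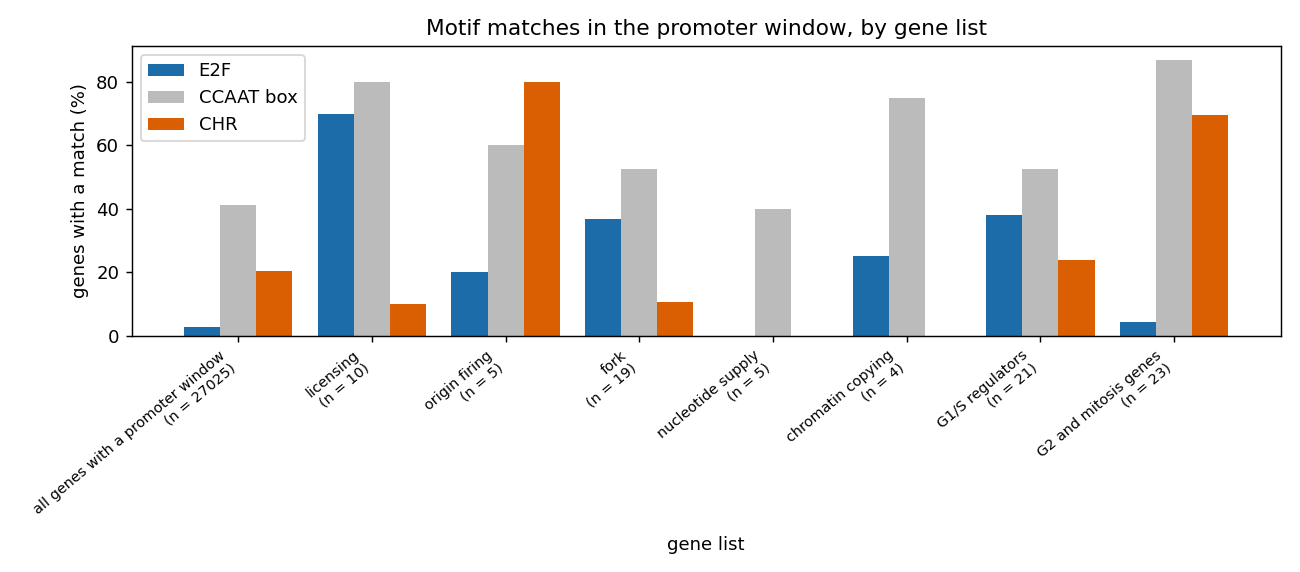
Share of genes (y axis, percent) whose promoter window holds an E2F form, a CCAAT box or a CHR, for all genes with a window, the 5 role groups of members and the lists of G1/S regulators and G2 and mitosis genes (x axis, number of genes with a window in brackets). E2F forms were found in 70.0% of licensing genes, 38.1% of G1/S regulators and 2.6% of all genes. The CHR was found in 69.6% of G2 and mitosis genes and 20.2% of all genes.

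Libraries held 18733801 to 26533528 counts, and mitochondrial transcripts took 1.54% to 1.90% of them. Levels are given in CPM, counts scaled to a common library total with TMM factors of 0.991 to 1.006. Markers of the 4T1 lineage were present: Krt8, Krt18 and Krt7, keratins of simple epithelia, and the adhesion gene Cdh1 had means of 721 to 1386 CPM in SM negative and 748 to 1314 CPM in SM positive libraries, while Krt19 and Cldn7 lay near 1 CPM. The 8 epithelial markers summed to 4484 to 4698 CPM in SM negative and 4204 to 4519 CPM in SM positive libraries, and with the replicate block described below Epcam, Krt19 and Cldn4 fell. Of 8 fibroblast markers, Col3a1, Lum, Thy1 and Dpt were at 0 in all libraries, and the list summed to 4.31 to 4.86 CPM in SM negative and 5.56 to 7.80 CPM in SM positive libraries, mostly from Pdgfra, which rose with the block. Of 8 macrophage markers, Adgre1, C1qa and C1qb were at 0, and the list summed to 14.9 to 15.9 CPM and 12.1 to 14.5 CPM, mostly from Cd14 and Cd68, of which Cd68 fell with the block. T cell markers summed to 5.54 to 6.73 CPM and 5.27 to 6.94 CPM, nearly all from Trac and Lck, with Cd3e, Cd3g, Cd4 and Cd8a at 0 in all libraries. Endothelial markers summed to 0.616 to 1.12 CPM and 0.514 to 0.81 CPM, with Emcn at 0. The calls of Epcam, Krt19, Cldn4, Pdgfra and Cd68 are from edgeR. With DESeq2 and the block, Cldn4 passed (adjusted p = 0.0172), while Epcam, Pdgfra and Cd68 did not (0.101, 0.449 and 0.335), and Krt19 had no adjusted p. The part that these marker differences have in the results was not tested.

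Libraries with the number 3 stood apart for these genes in both fractions. Replicate 3 was the lowest of its fraction for 48 of 51 members in SM negative and 50 of 51 in SM positive libraries, where 29.2% and 33.5% of all genes tested had this pattern. For 48 of 51 members it was the lowest in both fractions, against 14.7% of all genes. The median difference of replicate 3 from the mean of replicates 1 and 2 was -0.22 (log2) in SM negative and -0.30 in SM positive cells, while over all genes tested it was 0.0061 and 0.0015. These gaps between replicate numbers were wider than the median difference between the fractions given next. The counts of the 51 genes together made up 0.537%, 0.551% and 0.471% of SM negative replicates 1, 2 and 3 and 0.516%, 0.518% and 0.42% of SM positive replicates 1, 2 and 3. Replicate 3 was lowest in each fraction, and within each number the SM positive library was the lower one.

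**Figure D2:**
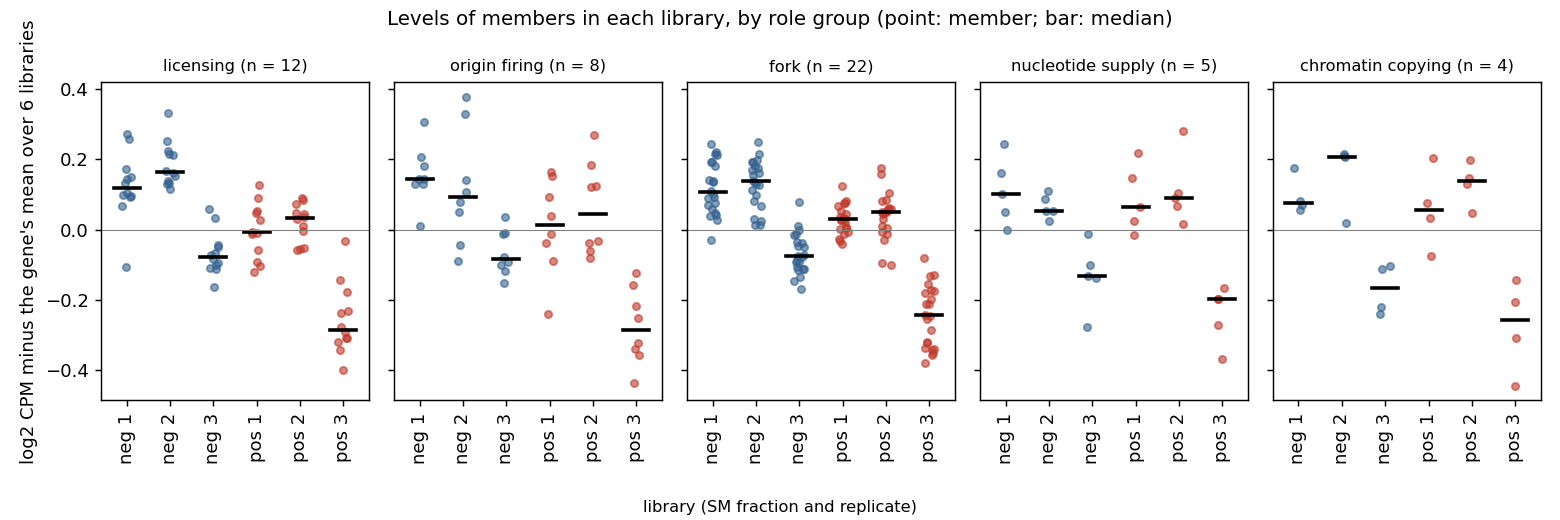
Level of each member in each library (y axis, log2 CPM minus the mean of that gene over 6 libraries; x axis, SM negative and SM positive replicates 1 to 3), in 1 panel per role group, with a point for each member and a bar at the median. The median of replicate 3 lies below those of replicates 1 and 2 of its own fraction in every panel, and in the licensing panel each SM positive median lies below that of the SM negative library with the same number.

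Across the 51 genes the difference between fractions was small and mostly 1-sided. Of these, 47 had a lower fitted level in SM positive cells (50.2% of all genes tested did), with a median log2 change of -0.12 against -0.00085 over all genes. In the fit that treats the libraries as unpaired (edgeR's quasi-likelihood test, adjusted over all genes tested), none of the 51 passed an adjusted p of 0.05, where 1.35% of all genes did (0.214% lower and 1.14% higher). In that fit 5 were lower at an unadjusted p under 0.05, against 5.58% of all genes, and none was higher, against 8.04%. DESeq2 and limma-voom without pairing also called none. Same-numbered libraries deviated together across all genes, so the fit was repeated with the replicate number as a block, which compares libraries within their pairs. With the block, 19 of 51 fell and 1, Rrm2, rose, against 5.6% of all genes lower and 8.52% higher. The falls were of 8.32% to 17.1%. For the 20 called members the adjusted p without the block was 0.226 to 0.722. Without the block, leaving out SM positive replicate 3 gave a median log2 change of -0.044 with 32 of 51 negative, leaving out SM negative replicate 2 gave -0.075 with 44 negative, and leaving out SM negative replicate 3 gave -0.18 with 48 negative.

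How many members passed with the block depended on the pairs and on the tool. Without pair 3, whose libraries stood apart, 6 fell and 1 rose (1.75% and 4.48% of all genes). Without pair 1, 8 of the 19 fell and Rrm2 did not pass (1.42% of all genes lower and 3.61% higher). Without pair 2, 17 fell and Rrm2 did not pass (5.36% lower and 7.22% higher), 14 of them among the 19, the others being Pold1, Pold2 and Uhrf1. DESeq2 with the block called 6 lower and none higher where it called 4.36% of all genes (1.35% lower and 3.01% higher). Limma-voom with the block called the same 19 lower as edgeR and Rrm2 higher (5.54% and 8.55% of all genes). Cdt1, Mcm10 and Timeless fell in all 5 of these settings, which share the block and reuse the same libraries. With DESeq2 and the block, Mcm10 and Timeless lay close to the threshold (adjusted p = 0.0431 and 0.0485), while Cdt1 had 0.00198. In bulk RNA, fewer cells in S phase and less of each transcript per cell cannot be told apart.

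**Figure D3:**
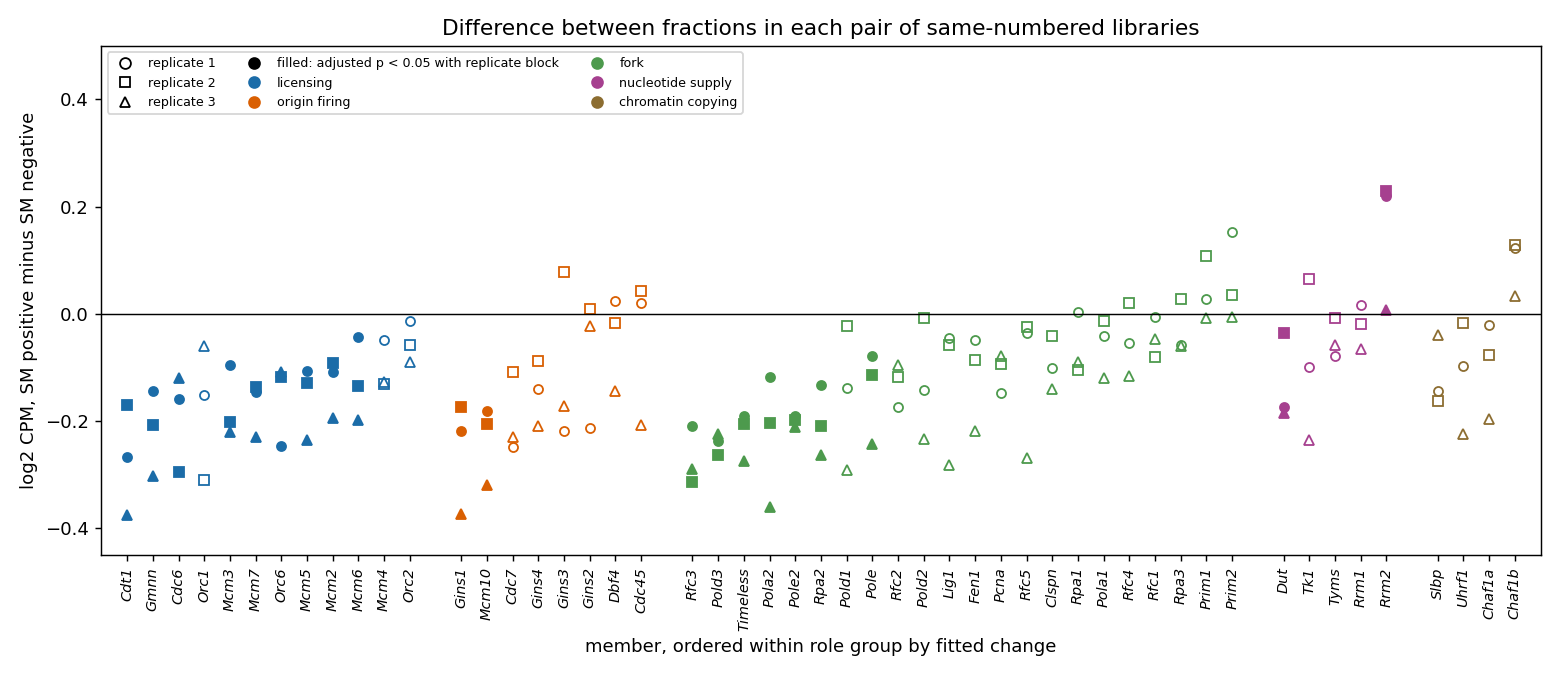
Difference in log2 CPM between the SM positive and the SM negative library of each pair (y axis; circles, squares and triangles for replicates 1, 2 and 3) for each member (x axis), coloured by role group. Filled symbols mark an adjusted p under 0.05 with the replicate block. All 3 symbols lie below 0 for 38 of 51 members (22.7% of all genes) and above 0 for 2, Rrm2 and Chaf1b (23.9% of all genes).

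Of the 12 licensing genes, 9 fell with the block, none rose, and 3 (Mcm4, Orc1 and Orc2) did not pass. With all 3 pairs this was the highest number of calls of any role group, but the number depended on the pairs and the tool. Of the 12 licensing and 22 fork genes, 2 and 5 fell without pair 1, 7 and 7 without pair 2, and 2 and 3 without pair 3. With DESeq2 and the block, 4 and 1 fell. As a share of its group, licensing was behind the fork genes only without pair 1, and without pair 3 the shares were close. All 12 were lower in SM positive cells in each of the 3 pairs, a pattern that 22.7% of all genes tested had. Their median log2 change was -0.16 without the block, and -0.069 when SM positive replicate 3 was left out. Cdt1, the factor that brings the helicase to origins (chromosome 8, 122568015 to 122573554, plus strand), was measured at 133, 120.4 and 114 CPM in SM negative replicates 1, 2 and 3 and at 110.2, 107 and 87.4 CPM in SM positive replicates 1, 2 and 3. Every SM positive library lay below every SM negative one. This held for 4 of the 51 (Cdt1, Gins1, Pold2 and Pold3) and 9.47% of all genes, and the opposite order for none of the 51 and 10.4% of all genes. For Cdt1 the log2 change with the block was -0.27 ± 0.0455 (adjusted p = 0.000379), and without it -0.27 ± 0.0915 (adjusted p = 0.235). The value after ± is here and below the SE from the fit, moderated over all genes tested, and not the SE of the 3 pair differences. These were -0.27, -0.17 and -0.38 (log2) in pairs 1, 2 and 3. Gmnn, which encodes geminin, the inhibitor that binds Cdt1 (chromosome 13, 24751845 to 24761923, minus strand), was measured at 42.9, 39.5 and 33.3 CPM in SM negative and 38.8, 34.2 and 26.9 CPM in SM positive replicates. The fractions overlapped, and the block gave -0.21 ± 0.0541 (adjusted p = 0.0116). The ratio of Cdt1 to Gmnn counts, chosen after the values were seen, was 3.09, 3.04 and 3.41 in SM negative and 2.84, 3.13 and 3.24 in SM positive libraries. The fractions overlapped, and the SM positive ratio was lower in pairs 1 and 3 and higher in pair 2. A test that ignores the pairing gave p = 0.6 (exact permutation test, 2-sided, and 0.6 adjusted over the 2 ratios compared). The smallest p that it allows with 3 against 3 libraries is 0.1, so it could not pass 0.05 for either ratio.

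Of the 6 subunits of the ring itself, 5 fell, and the loader Cdc6 fell with them. From here on, a value in brackets or a value said to have passed or not is the log2 change in the fit with the block, unless stated otherwise. Mcm5 (chromosome 8, 75109569 to 75128439, plus strand) was measured at 298, 324 and 266 CPM in SM negative and 277, 296 and 226 CPM in SM positive libraries, a log2 change of -0.16 ± 0.0404 with the block (adjusted p = 0.0122). Mcm2 was at 178, 183 and 161 CPM and 165, 172 and 141 CPM (-0.13, adjusted p = 0.0358). For both genes replicate 3 was lowest in each fraction, and the fractions overlapped. Mcm3, Mcm6 and Mcm7, named because they were called, fell by 0.17, 0.13 and 0.17 on the log2 scale, while Mcm4 had a value of -0.10 and did not pass (adjusted p = 0.0939). Cdc6, the ATPase that loads the ring, was at 52.9, 63.5 and 46.7 CPM in SM negative and 47.3, 51.7 and 43.0 CPM in SM positive replicates (-0.19, adjusted p = 0.0122). Among the origin recognition subunits, Orc6 fell from 80.9, 81.9 and 69.9 CPM to 68.2, 75.5 and 64.7 CPM (-0.16, adjusted p = 0.0201). Orc1 was at 32.9, 36.7 and 29.0 CPM and 29.6, 29.6 and 27.9 CPM and did not pass (-0.18, adjusted p = 0.0516). Orc2 had a value of -0.054 (adjusted p = 0.458). Mcm7 shares 33.4% of its 31-base stretches with other genes, mostly the copy Gm5487, and overlaps Cops6 and Ap4m1 on the opposite strand, so its level is uncertain. Exons of Orc6 overlap those of Vps35 on the opposite strand. Without pair 3 the licensing calls were Cdc6 and Cdt1 alone, without pair 1 they were Mcm3 and Cdt1, without pair 2 they lacked Mcm6 and Cdc6, and with DESeq2 and the block they were Mcm3, Mcm5, Mcm7 and Cdt1.

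Of the 8 origin firing genes, 2 fell with the block, none rose and 6 did not pass. Without the block the median log2 change over the 8 was -0.12 (-0.060 without SM positive replicate 3). Mcm10, which stabilises the active helicase (chromosome 2, 4989714 to 5012791, minus strand), was measured at 73.9, 84.1 and 61.7 CPM in SM negative replicates 1, 2 and 3 and at 65.1, 72.9 and 49.4 CPM in SM positive ones. The SM positive library was the lower one in each pair, and the fractions overlapped. The log2 change was -0.23 ± 0.0453 with the block (adjusted p = 0.00153) and -0.23 ± 0.161 without it (adjusted p = 0.617). Gins1, a subunit of the GINS complex, fell from 16.4, 15.7 and 14.6 CPM to 14.1, 13.9 and 11.2 CPM with no overlap (-0.25, adjusted p = 0.0364), a call that ended with DESeq2 and with each pair left out. The other GINS genes, Gins2, Gins3 and Gins4, had values of -0.084, -0.11 and -0.15 and did not pass. Cdc45, which travels with the ring and GINS, was at 44.1, 42.1 and 35.9 CPM in SM negative and 44.7, 43.4 and 31.1 CPM in SM positive libraries, higher in pairs 1 and 2 and lower in pair 3 (-0.040, adjusted p = 0.708). The kinase gene Cdc7 and its activator Dbf4 had values of -0.19 (adjusted p = 0.0574) and -0.045 (adjusted p = 0.556). Exons of Gse1 on the opposite strand overlap Gins2, and Gins2 shares 66.2% of its 31-base exon stretches with other genes.

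At the fork, 7 of 22 genes fell with the block, none rose and 15 did not pass. Without the block the median log2 change over the 22 was -0.12 (-0.023 without SM positive replicate 3). In all 3 pairs 17 of the 22 were lower. Rfc3, a subunit of the clamp loader (chromosome 5, 151642756 to 151651242, minus strand), was measured at 43.0, 42.2 and 35.1 CPM in SM negative and 37.2, 33.9 and 28.7 CPM in SM positive replicates. The highest SM positive library exceeded only the lowest SM negative one, and the log2 change was -0.27 ± 0.0529 with the block (adjusted p = 0.00165). Its partners Rfc1, Rfc2, Rfc4 and Rfc5 had values from -0.13 to -0.045 and did not pass. Pcna, the clamp that Rfc loads, was at 288, 291 and 238 CPM and 259.8, 273 and 225 CPM (-0.11, adjusted p = 0.0737), and Pcna shares 23.3% of its 31-base exon stretches, mostly with the copy Pcna-ps2.

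Of the polymerase subunits, Pola2, Pold3, Pole and Pole2 fell, and Pola1, Pold1 and Pold2 did not pass. Pold3, an accessory subunit of polymerase δ (chromosome 7, 100082111 to 100121565, minus strand), fell from 55.5, 53.8 and 47.3 CPM to 47.0, 44.8 and 40.5 CPM. Its fractions did not overlap (-0.24 ± 0.0479, adjusted p = 0.00165). Pold1, the catalytic subunit of the same enzyme, was at 51.5, 47.8 and 43.7 CPM and 46.8, 47.0 and 35.7 CPM and did not pass (-0.15, adjusted p = 0.0748). Pola2, the B subunit of polymerase α, fell from 61.4, 63.7 and 56.2 CPM to 56.6, 55.3 and 43.7 CPM (-0.22, adjusted p = 0.00554), while Pola1, its catalytic subunit, had a value of -0.058 (adjusted p = 0.396). The primase genes Prim1 and Prim2, whose products start each new strand, had positive values of 0.044 and 0.065 and did not pass. Pole and Pole2 of polymerase ε, Rpa2 of the single-strand binding complex and Timeless, which protects paused forks, also fell, by 0.14, 0.20, 0.20 and 0.22 on the log2 scale; these 4 are named because they were called. Rpa1 and Rpa3, the other subunits of that complex, had values of -0.063 and -0.032, and the Okazaki fragment enzymes Fen1 and Lig1 values of -0.12 and -0.13; none of these 4 passed. The level of Fen1 is uncertain, since 79.6% of its 31-base exon stretches are shared, mainly with Gm10143, which overlaps it on the opposite strand. Pold2, another subunit of polymerase δ, had a value of -0.13 (adjusted p = 0.072), and Clspn, which encodes the checkpoint adaptor claspin, a value of -0.093 (adjusted p = 0.206). Of the 7 fork calls, Rfc3, Pold3 and Timeless were also called without pair 3, these and Pola2 and Rpa2 without pair 1 and without pair 2, and Timeless alone with DESeq2 and the block.

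**Figure D4:**
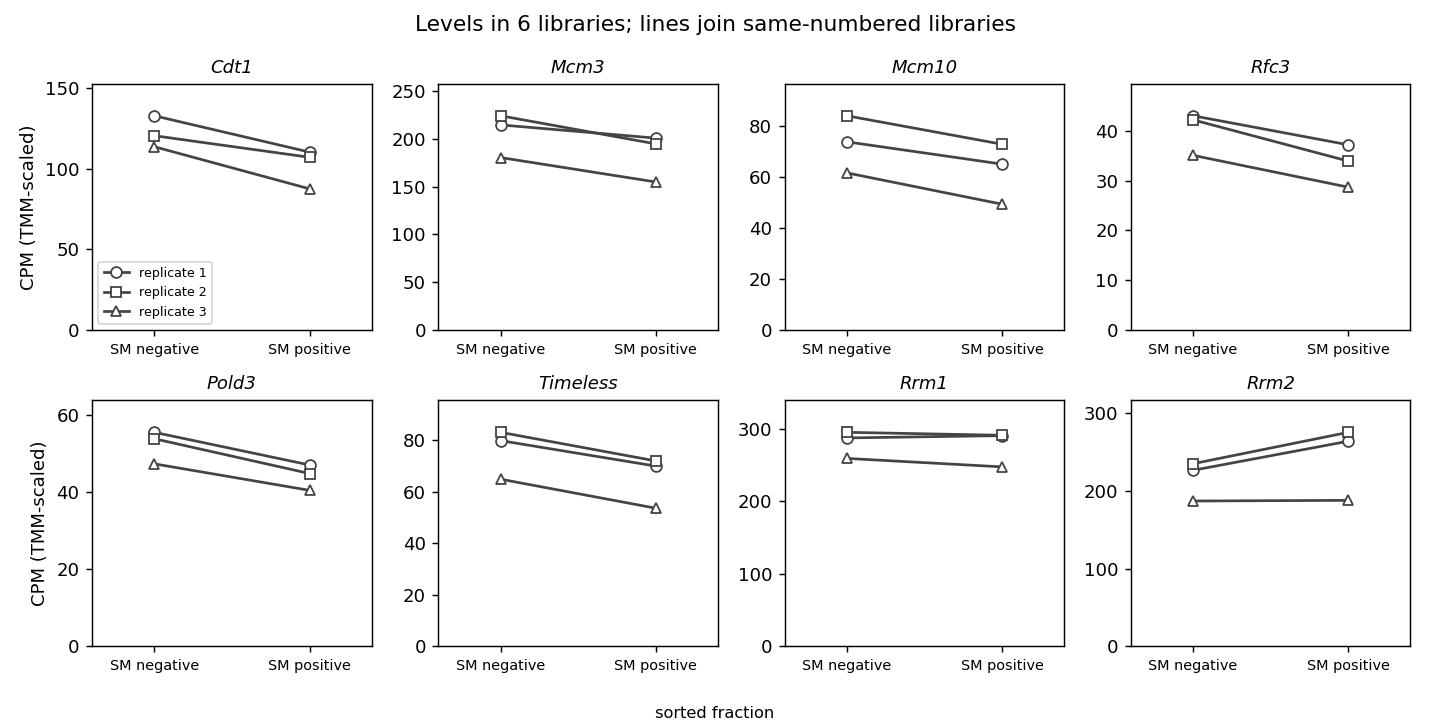
Levels of 8 members (y axis, TMM-scaled CPM from 0) in the SM negative and SM positive libraries (x axis), with lines joining libraries that share a replicate number. Each line falls for Cdt1, Mcm3, Mcm10, Rfc3, Pold3 and Timeless, the lines for Rrm1 are nearly level, and those for Rrm2 rise in pairs 1 and 2 and are level in pair 3; Mcm3, Timeless and Rrm1 were chosen for this plot after their values were seen.

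Among the 5 nucleotide supply genes, 1 fell with the block, 1 rose and 3 did not pass. Without the block the median log2 change was -0.047 (0.052 without SM positive replicate 3). Rrm2, the small subunit of ribonucleotide reductase that limits deoxynucleotide synthesis in S phase (chromosome 12, 24708241 to 24714146, plus strand), was measured at 226, 235 and 187 CPM in SM negative and 264, 275 and 188 CPM in SM positive replicates 1, 2 and 3. SM positive replicates 1 and 2 exceeded every other library, and replicate 3 was nearly equal in the fractions, with log2 differences within pairs 1, 2 and 3 of 0.22, 0.23 and 0.0063. The log2 change was 0.15 ± 0.0453 with the block (adjusted p = 0.0285) and 0.17 ± 0.156 without it (adjusted p = 0.722). The call held without pair 3 (adjusted p = 0.0107 with the block) but not without pair 1 (0.322) or pair 2 (0.178), nor with DESeq2 and the block (adjusted p = 0.12). Rrm1, the large subunit, named for comparison after its values were seen, was at 287, 295 and 259 CPM and 291, 291 and 248 CPM (-0.023, adjusted p = 0.762). The ratio of Rrm2 to Rrm1 counts, which no scaling of the libraries can change, was 0.788, 0.796 and 0.721 in SM negative and 0.908, 0.945 and 0.758 in SM positive libraries. The ratio was higher in SM positive cells in each of the 3 pairs, and SM positive replicate 3 alone fell within the SM negative range. A test that ignores the pairing gave p = 0.3 (exact permutation test, 2-sided; 0.6 adjusted over the 2 ratios). Part of Rrm2, 12.8% of its 31-base stretches, also occurs in other genes.

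Thymidine supply gave smaller values. Tyms, thymidylate synthase, was at 63.6, 63.9 and 53.8 CPM and 60.2, 63.6 and 51.6 CPM (-0.049, adjusted p = 0.533). Tk1, the thymidine kinase of the salvage path, was at 107, 91.8 and 82.3 CPM and 99.8, 96.0 and 69.9 CPM, higher in pair 2 and lower in the others (-0.088, adjusted p = 0.28). Without the block and without SM positive replicate 3, the values of Tyms and Tk1 turned positive (0.034 and 0.064). Dut, the enzyme that removes dUTP, fell from 115, 107 and 102 CPM to 102, 104 and 89.8 CPM (-0.13, adjusted p = 0.0493), a call close to the threshold that was lost with library totals in place of TMM, with DESeq2 and without pair 1 or pair 3.

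None of the 4 chromatin genes passed in either fit with edgeR, DESeq2 or limma-voom, and none had an unadjusted p under 0.05 without the block. Chaf1a and Chaf1b encode subunits of the chromatin assembly factor that places histones behind the fork, and their values had opposite signs: -0.095 (adjusted p = 0.187) and 0.10 (adjusted p = 0.223). Chaf1b was at 44.6, 42.7 and 35.7 CPM in SM negative and 48.6, 46.7 and 36.5 CPM in SM positive replicates, higher in every pair by 0.12, 0.13 and 0.033 (log2), with the fractions overlapping. Chaf1a was at 75.1, 83.3 and 66.8 CPM and 74.0, 79.0 and 58.3 CPM, and it shares 51.0% of its 31-base exon stretches, mainly with Ubxn6 on the opposite strand. Its value turned positive when SM positive replicate 3 was left out of the unpaired fit (0.028). Slbp, which binds the stem-loop of histone mRNAs, was at 109.7, 121 and 97.3 CPM and 99.2, 108 and 94.6 CPM, lower in every pair (-0.12, adjusted p = 0.0752). Uhrf1, which guides maintenance methylation of new DNA, had a value of -0.11 (adjusted p = 0.0921) and spanned 147 to 233 CPM over the libraries, the lowest being SM positive replicate 3.

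Other genes of the same pathways were listed separately from the members. With the block, 5.6% of all genes tested fell and 8.52% rose. Of 29 other replication genes, 3 fell and 2 rose with the block, and the median log2 change without the block was -0.077. Top2a, the topoisomerase that untangles copied chromosomes, rose from 701, 693 and 695 CPM to 832, 877 and 735 CPM with no overlap (0.22, adjusted p = 0.00319 with the block), and Mtbp, a partner of the origin firing factor treslin, fell (-0.17, adjusted p = 0.0133). Of 21 other nucleotide supply genes, 6 fell and 1 rose, the falls including Dctpp1, a dCTP-cleaving enzyme (-0.27, adjusted p = 0.00378), and the nucleoside diphosphate kinase Nme1 (-0.20, adjusted p = 0.00348). Of 12 other chromatin genes, Nasp, a histone chaperone, fell (-0.22, adjusted p = 0.000798) and none rose, and Supt16 of the FACT complex did not pass (-0.11, adjusted p = 0.0787). With the block, other nucleotide supply genes had no call in either direction without pair 1 or without pair 3, and 2 lower and none higher with DESeq2. Other replication genes had 1 lower and none higher without pair 1, none lower and 1 higher without pair 3, and none lower and 1 higher with DESeq2. Without the block none of the genes in these 3 lists passed with edgeR, DESeq2 or limma-voom. At an unadjusted p under 0.05 in edgeR, 3, 6 and 1 of them were lower and 1, Top2a, was higher, against 5.58% of all genes lower and 8.04% higher.

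Lists from the neighbouring cell cycle phases had medians near 0. Of 28 G1/S regulators listed, 26 were tested, and Cdkn2a and Cdkn2b had no counts in any library. Of the 26, 5 rose and none fell with the block (8.52% and 5.6% of all genes), and the median log2 change without the block was 0.031. The 2 named by the rule were the kinase inhibitor genes Cdkn2c (0.30, adjusted p = 0.00015; adjusted p = 0.0404 without the block) and Cdkn1b (0.26, adjusted p = 0.00077). The other 3 that rose were the cyclin genes Ccnd2, Ccna2 and Ccne2, whose products drive entry into and passage through S phase (0.22, 0.16 and 0.21), and the inhibitor gene Cdkn1a did not pass (-0.16, adjusted p = 0.157); these 4 were named after their values were seen. E2f1, an activator of S phase genes named after its values were seen, was at 49.0, 48.2 and 39.2 CPM and 50.1, 45.7 and 36.2 CPM (-0.049, adjusted p = 0.59). Of 28 G2 and mitosis genes, 5 fell and 9 rose with the block (5.6% and 8.52% of all genes). Their median was 0.0024 without the block and -0.00010 with it. Prc1 and Kif11, which act on the mitotic spindle, were among the 9 (0.27 and 0.25). Among the 5 was Mki67, the proliferation marker, named after its values were seen (-0.18, adjusted p = 0.0042). The balance of this list depended on the pairs, with 2 lower and 4 higher without pair 1, 7 and 5 without pair 2, and 1 and 10 without pair 3. The difference between these lists and the members was not tested.

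**Figure D5:**
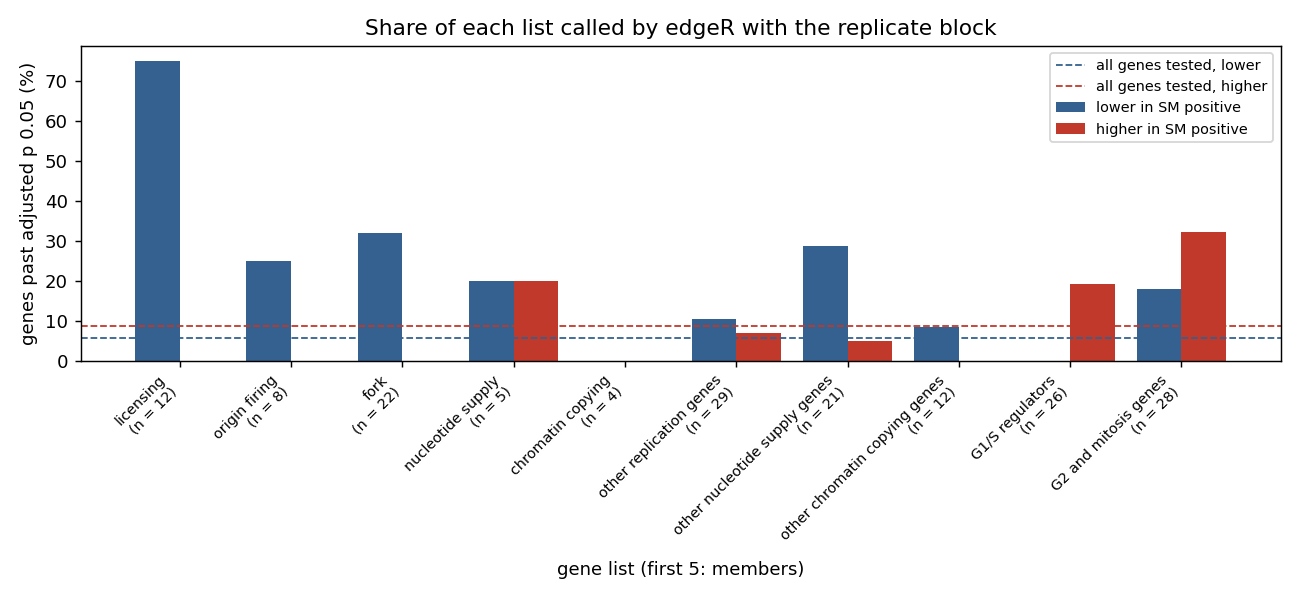
Share of each gene list (y axis, percent of genes tested) past an adjusted p of 0.05 with the replicate block, lower (blue) or higher (red) in SM positive cells, for the 5 role groups of members and 5 lists of other cell cycle genes (x axis, number tested in brackets). Dashed lines mark the shares over all 14038 genes, 5.6% lower and 8.52% higher; licensing has the tallest bar in this fit on all 3 pairs, with 9 of 12 genes lower, while G1/S regulators have no gene lower and 5 of 26 higher.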

How the data were processed

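Polyadenylated RNA of 6 libraries was measured, 3 per C12FDG fraction, from stranded mRNA libraries per the labels' protocols. The authors deposited expected counts per gene, and the submitters' processing notes name FastQC 0.11.5, STAR 2.6.0a, RSEM 1.3.1 and the build GRCm38, with no role or order. For the annotation release and the strand setting, the sources used here give nothing, and genes that overlap on opposite strands may therefore share reads. Symbols and 1-based coordinates come from GENCODE M21 (GRCm38), which matched 99.8% of 53465 identifiers. Shared sequence was measured as the share of a gene's 31-base exon stretches that occur in another gene.

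Expected counts were rounded to whole numbers, filtered with filterByExpr (14038 genes) and scaled by TMM. Fractions were compared by edgeR 4.0.16 (R 4.3.3, quasi-likelihood F test), adjusted by Benjamini-Hochberg over all genes tested, with a threshold of 0.05. An adjusted p printed with no tool is from edgeR. Log2 changes are SM positive minus SM negative, and a gene not said to be without the block has its value from the fit with it, while medians are from the fit without it. The fits were tested on simulated data whose planted changes were larger than any change of the members. That test does not show how well changes as small as theirs are found. Without the block, p-values are measured against the spread between libraries of a fraction. With it, they are measured against the spread left once replicate number and fraction are fitted. Both spreads are moderated by edgeR over all genes tested. A printed SE is the size of the log2 change divided by the square root of the F statistic. It is therefore not the plain SE of 3 pair differences. Labels give neither the origin of a replicate nor the meaning of its number, so either spread may be technical. Deviations from the fraction means correlated at 0.22, 0.28 and 0.196 between same-numbered libraries and at -0.175 to -0.0435 between others. Within a fraction a gene's deviations sum to 0, so positive values between same-numbered libraries bring negative ones between others with them. The negative values are therefore no separate evidence of pairing. All 3 same-numbered values exceeded 0.1, the limit for treating same-numbered libraries as pairs. Most values for single genes come from the fit that blocks on the replicate number.

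The members and lists were chosen with earlier results of these data known. Named members were 12 named whatever their values plus, in each role group, the 3 with the smallest unadjusted p without the block and a mean of at least 1 CPM; from each list of other genes it was up to 2. Any other gene was named because it was called or was chosen after its values were seen. Alternatives were DESeq2 1.42.0, limma-voom (limma 3.58.1), RLE factors, library totals, no filter, more than 1 CPM in 3 libraries, no robust estimation, a threshold of 0.01, and leaving out each library or pair.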

Additional observations from a re-analysis of the deposited data

How the results depend on the processing

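Calls of members depended on the replicate block: members past the threshold numbered 0 without it and 20 with it, and 20 with RLE factors and the block, 20 with limma-voom and the block, 19 with library totals and the block, 6 with DESeq2 and the block, and 8, 17 and 7 with the block when pair 1, 2 or 3 was left out. Without the block they numbered 1 with no filter (Cdt1) and 0 under the other settings. Over all genes, 190 passed without the block and 1982 with it, 1975 with RLE factors and the block, 1978 with limma-voom and the block, 1961 with library totals and the block, 612 with DESeq2 and the block, and 705, 1793 and 886 with the block when pair 1, 2 or 3 was left out. Without the block, 334 passed with DESeq2, 663 with no filter, 33 at a threshold of 0.01, and 25 to 123 when 1 library was left out. With 1 pair left out only 2 pairs remain, and the fit has fewer libraries. Why the other settings differ was not tested.

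Negative values that did not pass changed sign in some settings. Leaving out 1 library without the block gave Cdc45 values of -0.13 to 0.11, Tyms -0.12 to 0.034, Tk1 -0.18 to 0.064 and Chaf1a -0.18 to 0.028, and Cdc45 was 0.031 with the block and without pair 3. Each of these 4 was positive without SM positive replicate 3, and Cdc45 and Tk1 were so without SM negative replicate 1 (0.030 and 0.027). With SM positive replicate 3 left out, the median was 0.052 over the nucleotide supply genes and 0.048 over the chromatin genes, and -0.069 over the licensing genes. Other values of named members kept their sign. Counting each of the 23 named members once per setting, 77 values passed where the main fit's did not. All 77 were in settings with the block or with no filter, and 1 gene can count in several. The median over all genes stayed within 0.022 of 0 in each setting run. Depth limits the members with the fewest counts: Gins1, with 222 counts in SM positive replicate 3, had a standard error of 0.0787 with the block, the widest of the 51, whose median was 0.0457.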
